A study of Homo sapiens with 48 samples.

Results

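The NDRG (N-myc downstream regulated gene) family has 4 members in human cells, NDRG1, NDRG2, NDRG3 and NDRG4, and their RNA was followed in 2 prostate cancer cell lines held at 6 oxygen levels. Members were taken as the array probes whose deposited symbol is one of these 4 names, which gave 4 of 31426 named genes and 9 of 47323 probes: 1 for NDRG1, 2 for NDRG2, 2 for NDRG3 and 4 for NDRG4. Of these, 6 were detected on at least 2 of the 48 arrays and were tested together with all other detected probes, 22637 in all. In the RefSeq annotation of GRCh38.p14 the genes lie on 4 different chromosomes: NDRG1 at chr8:133237175-133297252, NDRG2 at chr14:21016763-21070872, NDRG3 at chr20:36651771-36746090 and NDRG4 at chr16:58463715-58515387.

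The hypoxia groups were 22Rv1 and PC-3 cultures kept for 24 h in a hypoxia chamber, at 0% O2, at 0.2 or 0.5%, at 1 or 2%, or at 5%. Each level had its own normoxia control of the same line in ordinary air, and every group held 2 arrays, which makes 24 groups and 48 arrays. The cells had no genetic change or drug, and both arms grew in RPMI-1640 with fetal bovine serum, antibiotics and glutamine. The 22Rv1 line comes from a human prostate tumour xenograft and the PC-3 line from a bone metastasis of prostate cancer, so each of these sources is represented by a single line. The labels do not say whether the 2 arrays of a group came from separate cultures, so a p-value here reflects only how far these arrays spread, and that spread may be technical.

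NDRG proteins share an alpha/beta hydrolase fold but lack the residues of an active hydrolase, and they act in stress responses, differentiation and vesicle trafficking. NDRG1 is a known target of the hypoxia-inducible factors, is repressed by MYC and N-MYC, is induced by androgen in prostate cells and is described as a suppressor of metastasis in prostate cancer. NDRG2 is a stress-responsive growth inhibitor of brain, muscle and liver, NDRG3 is a protein that prolyl hydroxylation marks for destruction in oxygen and that lactate stabilises, and NDRG4 is best known from brain and heart.

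A probe counted as detected at a detection p under 0.01, and 13750 to 16494 probes per array were detected (29.1 to 34.9%). Levels are normalized log2 intensities, and the lowest signal among detected probes, the floor of an array, lay between 4.96 and 5.34 on that scale. KLK2, a kallikrein of prostate epithelium, was detected on all 22Rv1 arrays and on no PC-3 array. KLK3, the gene of prostate-specific antigen, was detected in neither line, and TMPRSS2 and VIM were detected on every array of both lines. The deposited tables label 46 of 48 arrays alike and exchange the other 2, which are replicate 2 of 22Rv1 hypoxia at 0.2% O2 and its control. Labels follow the intensity table here, and where leaving these arrays out ends or starts a call reported here, that value is given too.

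NDRG1 RNA was higher in hypoxia than in the own control in every one of 12 pairs in 22Rv1 and every one of 12 pairs in PC-3, at all 6 oxygen levels. Its probe, ILMN_1809931, was detected on all 48 arrays with intensities of 193 to 13165. In 22Rv1 the 12 hypoxia arrays read 8.27 at the lowest, 11.20 at the median and 12.30 at the highest, against 7.33, 7.44 and 8.30 in the 12 normoxia arrays. The arms overlapped by 1 array, because the hypoxia array of replicate 2 at 5% O2 lay just under the brightest control. In PC-3 the hypoxia arrays read 11.71, 13.35 and 13.57 at the lowest, median and highest, against 10.37, 10.89 and 11.41 in normoxia. All 12 hypoxic PC-3 arrays were above all 12 controls, as held for 1.09% of tested probes in that direction in PC-3 and for 0.627% in 22Rv1. An array reads RNA pooled over a culture, so a change in the number of cells with NDRG1 RNA and a change in RNA per cell cannot be told apart.

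At 0% O2 NDRG1 read 12.18 and 12.14 in hypoxic 22Rv1, against 7.45 and 7.39 in its controls. At 0.2% O2 the hypoxic 22Rv1 arrays read 11.69 and 10.48 and the controls 7.33 and 7.76. The 0.5% hypoxia arrays read 12.30 and 11.47, against 8.30 and 7.54 in normoxia. Hypoxia stood far above normoxia at these 3 levels, and replicate 2 at 0.2% O2, one of the doubted arrays, was the dimmest of the 6 hypoxia arrays. At 1% O2 the values were 11.22 and 11.18 in hypoxia and 7.65 and 7.40 in normoxia. At 2% O2 they were 10.55 and 10.21 in hypoxia and 7.78 and 7.41 in normoxia. For 5% O2 the hypoxic 22Rv1 arrays had 9.18 and 8.27, against 7.40 and 7.44 in the controls. Both hypoxia arrays were thus above both own controls at every level in 22Rv1, an arrangement that 27.7, 18.8, 26.1, 24.1, 22.1 and 15.1% of tested probes also showed, in the order of rising oxygen.

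In PC-3 at 0% O2 NDRG1 read 13.45 and 13.57 in hypoxia, against 10.95 and 10.83 in normoxia. At 0.2% O2 the hypoxic PC-3 arrays had 13.36 and 13.54 and the controls 10.59 and 11.08. Hypoxic PC-3 arrays at 0.5% O2 read 13.49 and 13.48, against 10.99 and 10.39 in normoxia. The 6 arrays of the lowest oxygen levels lay within a narrow band near the top of the scale. At 1% O2 the PC-3 values were 13.19 and 13.33 in hypoxia and 10.70 and 11.00 in normoxia. At 2% O2 they were 12.25 and 13.27 in hypoxia and 10.37 and 11.14 in normoxia. The hypoxic PC-3 arrays at 5% O2 had 11.71 and 12.39, against 10.68 and 11.41 in the controls. Each level of PC-3 again had both hypoxia arrays above both controls, as did 22.8, 20.4, 19.2, 18.7, 17.6 and 17.8% of tested probes in the same order of levels.

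**Figure D1:**
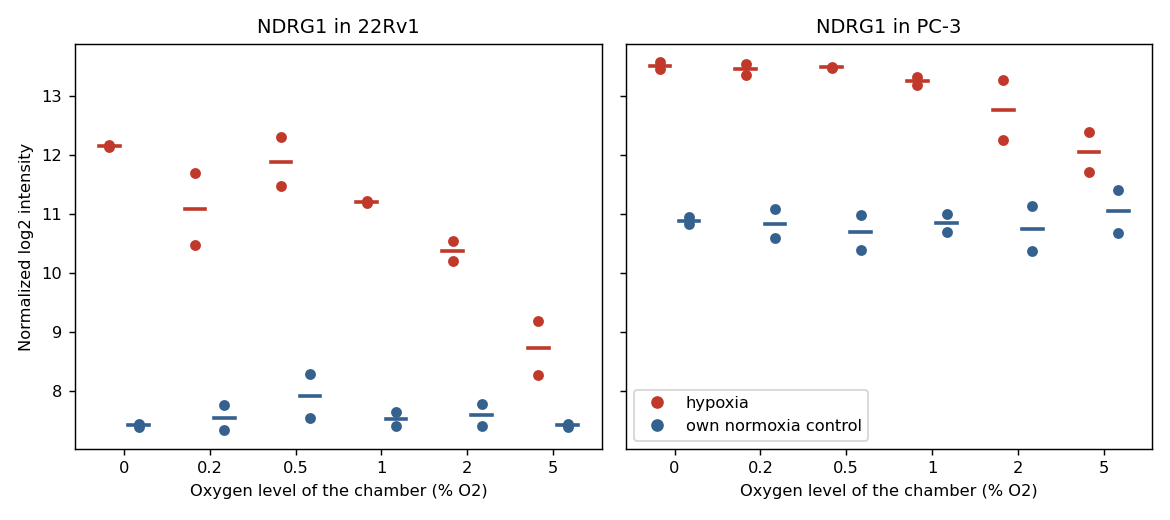
Normalized log2 intensity of NDRG1 (vertical axis) at each chamber oxygen level in % O2 (horizontal axis, 2 arrays a group as points, their mean as a bar), with hypoxia in red and its own normoxia control in blue. Hypoxic 22Rv1 arrays run from 12.18 and 12.14 at 0% O2 down to 9.18 and 8.27 at 5%, while hypoxic PC-3 arrays stay between 13.19 and 13.57 up to 1% O2.

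Averaged over the levels, NDRG1 rose by 3.34 ± 0.14 log2 units in 22Rv1 (SE, 10.1-fold, limma adjusted p = 2.48e-19) and by 2.24 ± 0.14 in PC-3 (4.73-fold, adjusted p = 6.02e-14). These comparisons called 38.4% of all tested probes in 22Rv1 and 21.2% in PC-3, with 17.5 and 9.54% called higher. Ordered from the largest rise to the largest fall, the NDRG1 probe ranked 10 among the 22637 tested probes in 22Rv1 and 2 in PC-3. Without the 2 doubted arrays the 22Rv1 mean was 3.47 ± 0.14.

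By level, the NDRG1 change in 22Rv1 was 4.74 at 0% O2, 3.54 at 0.2%, 3.96 at 0.5%, 3.67 at 1%, 2.78 at 2% and 1.31 at 5%, and each change had an SE of 0.35. The first 5 passed limma's threshold, with 1.66e-06 as the highest adjusted p, and the change at 5% O2 did not (adjusted p = 0.295). In the 22Rv1 comparisons 25.8, 9.02, 24.7, 12.3, 3.3 and 0.0751% of tested probes were called from 0 to 5% O2. With each hypoxia array paired to the control of the same number, the change at 5% O2 in 22Rv1 also passed (adjusted p = 0.00152, with 0.261% of probes called). Exchanging the labels of the 2 doubted arrays left a change of 0.82 at 0.2% O2 with an adjusted p of 1.00, and leaving those arrays out gave 4.36. With that exchange the SE of the other levels was 0.70, and the NDRG1 change of 2.78 at 2% O2 in 22Rv1 then missed the threshold (adjusted p = 0.0811), as did those of 2.41 and 2.01 at 1 and 2% O2 in PC-3 (adjusted p = 0.162 and 0.755).

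The PC-3 change of NDRG1 was 2.62 at 0% O2, 2.62 at 0.2%, 2.80 at 0.5%, 2.41 at 1%, 2.01 at 2% and 1.00 at 5%, and its SE was again 0.35. Again the 5 lower oxygen levels passed, with 0.00237 as the highest adjusted p, while 5% O2 did not (adjusted p = 0.728). Across these comparisons 7.48, 3.98, 3.51, 1.07, 0.247 and 0.00442% of tested probes were called in PC-3. The paired fit called NDRG1 at 5% O2 too (adjusted p = 0.0322, with 0.274% of probes called). At 2% O2 the call depended on single arrays, since the change was 1.62 without normoxia replicate 1 (adjusted p = 0.241) and 1.50 without hypoxia replicate 2 (adjusted p = 0.442).

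The NDRG1 change tended to grow as oxygen fell, though not at every step. In 22Rv1 it gained 0.56 ± 0.08 log2 units per step in the rank of the levels (limma adjusted p = 1.23e-05), where 11.1% of probes were called, and 0.63 without the doubted arrays. With the labels of those arrays exchanged the slope was 0.33 (adjusted p = 0.312). In PC-3 the change stayed between 2.41 and 2.80 from 1% O2 down to 0%. The PC-3 slope was 0.29 ± 0.08 per step and missed the threshold (limma adjusted p = 0.0694, with 1.35% of probes called). It passed in the paired fit (adjusted p = 0.000566, with 4.51% of probes called), and also after leaving out any one of 4 PC-3 arrays, normoxia replicate 1 or hypoxia replicate 2 at 2 or at 5% O2 (slopes of 0.33 to 0.35, highest adjusted p 0.0459) or without the 2 doubted arrays (adjusted p = 0.0339).

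Neighbouring levels were harder to separate. Of the 10 differences between neighbouring NDRG1 changes, 5 in each line, limma called 0, while 3 had an unadjusted p under 0.05. The 3 were 2% against 5% O2 in both lines and 0% against 0.2% O2 in 22Rv1. In 22Rv1 the change at 2% O2 exceeded that at 5% by 1.47 ± 0.49 (adjusted p = 0.608, 0.0707% of probes called) and that at 0% exceeded 0.2% by 1.20 ± 0.49 (adjusted p = 0.167, 6.26% called). The paired fit called both, with adjusted p-values of 0.0172 and 0.00733 and with 0.309 and 11.6% of probes called. The step between 0 and 0.2% O2 rested on the doubted arrays, since without them it was 0.38 ± 0.55 (adjusted p = 0.853, and 0.415 in the paired fit). Without them the change at 0.2% O2 also exceeded that at 0.5% by 0.40 ± 0.55, where with them it was lower, at -0.43. In PC-3 the change at 2% O2 exceeded that at 5% by 1.00 ± 0.49, and the other 4 neighbours in PC-3 differed by 0.41 or less.

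The response of NDRG1 was larger in 22Rv1 than in PC-3. The mean change differed by 1.09 ± 0.20 log2 units between the lines (22Rv1 minus PC-3, limma adjusted p = 0.000119), in a comparison that called 20.2% of probes, and by 1.23 ± 0.19 without the doubted arrays. At single levels the difference was 2.12 ± 0.49 at 0% O2 (adjusted p = 0.00321, 10.7% of probes called), 0.92 at 0.2%, 1.17 at 0.5%, 1.26 at 1%, 0.78 at 2% and 0.31 at 5%. Of these, 0% O2 passed the threshold, and at the higher levels 1.33, 7.82, 1.64, 0.186 and 0.00442% of probes were called. The paired fit added 0.5% (adjusted p = 0.00723, with 16.6% of probes called) and 1% O2 (adjusted p = 0.0106, with 5.86%). Leaving out hypoxic 22Rv1 replicate 2 at 0.5% O2 also brought that level past the threshold (1.58, adjusted p = 0.0400). With the labels of the doubted arrays exchanged the NDRG1 difference missed the threshold, both as the mean (0.64, adjusted p = 0.331) and at 0% O2 (2.12, adjusted p = 0.218). Without those arrays the NDRG1 difference at 0.2% O2 was 1.74 ± 0.55 (adjusted p = 0.0883, and 3.91e-05 in the paired fit), and the paired fit then also called 2% O2 (adjusted p = 0.0495).

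The lines started from different NDRG1 levels. In normoxia 22Rv1 was 3.27 ± 0.14 log2 units below PC-3 (limma adjusted p = 1.03e-20), and the brightest 22Rv1 control (8.30) lay well under the dimmest PC-3 control (10.37). Of all tested probes, 68.5% differed between the lines in normoxia, and 18.4% had all 22Rv1 controls below all PC-3 controls. In intensity units, NDRG1 at 0, 0.2 and 0.5% O2 stood at 7.72 to 30.0% of the brightest probe of the array in 22Rv1 and at 65.7 to 73.7% in PC-3. Whether the nearness of the PC-3 signal to the brightest probes bears on the smaller PC-3 change was not tested. Line and any batch that held a line cannot be told apart.

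NDRG4 followed NDRG1 at a much smaller size in 22Rv1. The one NDRG4 probe that was detected, ILMN_2305225, was detected on all 48 arrays at intensities of 113 to 385. The other 3 NDRG4 probes were detected on 0 of 48 arrays with intensities of at most 119 and were not tested, so nothing is known here of the transcripts they read. One of the 4 NDRG4 promoter windows of RefSeq (250 bases before to 50 after a start site) held the core of the hypoxia response element, and it is printed because NDRG4 was the member that moved with NDRG1. Capitals mark matches to ACGTG or GCGTG on either strand, where CACGC is GCGTG read on the other strand. ACGTG is also part of CACGTG, the motif of MYC and its relatives.
NDRG4 promoter, GRCh38.p14 chr16:58463465-58463764, plus strand: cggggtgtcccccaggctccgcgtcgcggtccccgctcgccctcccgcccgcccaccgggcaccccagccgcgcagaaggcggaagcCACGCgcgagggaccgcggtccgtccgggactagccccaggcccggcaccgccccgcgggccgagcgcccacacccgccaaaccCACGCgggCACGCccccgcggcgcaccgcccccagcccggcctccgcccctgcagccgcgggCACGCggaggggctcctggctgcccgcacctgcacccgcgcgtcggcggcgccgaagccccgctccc
The window holds 4 matches to GCGTG, at 163, 79, 71 and 17 bases before the start site. At least 1 match to either motif was found in 48.4% of the 35116 promoter windows of the same length. A match describes letters and is not a bound site.

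In 22Rv1 the NDRG4 probe read 6.12, 6.65 and 7.63 at the lowest, median and highest of the 12 hypoxia arrays, against 5.89, 6.32 and 6.66 in normoxia. At 0% O2 it read 6.63 and 6.59 in hypoxia and 5.89 and 6.06 in normoxia. At 0.5% O2 it read 7.63 and 6.95 in hypoxia and 6.38 and 6.49 in normoxia. The hypoxia arrays were above both own controls at these levels. At 0.2% O2 the values were 6.83 and 7.05 in hypoxia and 6.22 and 6.66 in normoxia. At 1% O2 they were 6.66 and 6.99 in hypoxia and 6.06 and 6.44 in normoxia. Both levels again had hypoxia above normoxia, which made 4 of the 6 levels, although over all levels the arms overlapped. Hypoxia above both controls was also the arrangement of 27.7, 18.8, 26.1 and 24.1% of tested probes at 0, 0.2, 0.5 and 1% O2 in 22Rv1. At 2% O2 hypoxic 22Rv1 had 6.64 and 6.33, against 6.33 and 6.45 in its controls. At 5% O2 it read 6.12 and 6.33 in hypoxia and 6.29 and 6.32 in normoxia. Hypoxia and normoxia overlapped at these higher oxygen levels.

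Averaged over the levels NDRG4 rose by 0.43 ± 0.08 log2 units in 22Rv1 (1.35-fold, limma adjusted p = 2.74e-05), with 10 of 12 pairs higher. This comparison called 38.4% of tested probes, with 17.5% higher. Those at 0, 0.5 and 1% O2 in 22Rv1 called 25.8, 24.7 and 12.3%, and the slope 11.1%. The change was 0.64 at 0% O2, 0.50 at 0.2%, 0.85 at 0.5%, 0.57 at 1%, 0.10 at 2% and -0.08 at 5%, and each had an SE of 0.19. It passed the threshold at 0% (adjusted p = 0.0110), 0.5% (adjusted p = 0.000919) and 1% O2 (adjusted p = 0.0423), and at 0.2% O2 in the paired fit alone (adjusted p = 0.0955 without pairing and 0.0293 with it, where 17.1% of probes were called). The paired call at 0.2% O2 ended without the doubted arrays (0.62, adjusted p = 0.0585). NDRG4 gained 0.15 ± 0.05 per step of falling oxygen in 22Rv1 (adjusted p = 0.0315). This call held in 9 of 17 processing alternatives, with slopes of 0.06 to 0.17 and 0.355 as the highest adjusted p. The NDRG4 call at 1% O2 held in 9 of 17 as well (changes of 0.31 to 0.57, highest adjusted p 0.397), that at 0% in 13 of 17 (highest adjusted p 0.106) and that at 0.5% in 16 of 17.

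Single arrays carried several of the NDRG4 calls. The call at 0.5% O2 ended without hypoxia replicate 1 (0.51, adjusted p = 0.122). That at 0% O2 ended without hypoxia replicate 1 (0.61, adjusted p = 0.0647) or normoxia replicate 1 (0.55, adjusted p = 0.102), and that at 1% O2 without normoxia replicate 1 (0.38, adjusted p = 0.421) or hypoxia replicate 2 (0.41, adjusted p = 0.354). The slope lost its call, at 0.13 to 0.15 and adjusted p-values of 0.0518 to 0.0973, without either hypoxia array at 0%, hypoxia replicate 2 at 2%, hypoxia replicate 1 at 5%, normoxia replicate 1 at 0 or 0.2%, normoxia replicate 2 at 2% or either normoxia array at 5% O2.

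In PC-3 the NDRG4 probe read 7.46, 7.67 and 8.00 at the lowest, median and highest of the hypoxia arrays, against 7.35, 7.51 and 7.88 in normoxia. The arms overlapped almost fully, although 10 of 12 pairs were higher in hypoxia. Both hypoxia arrays lay above both own controls at 0.2, 0.5, 1 and 2% O2 in PC-3, as did 20.4, 19.2, 18.7 and 17.6% of tested probes. At 5% O2 they lay below both controls (7.46 and 7.60 in hypoxia, against 7.85 and 7.74 in normoxia), as 16.7% of tested probes did. Its PC-3 changes were 0.28 at 0% O2, 0.31 at 0.2%, 0.20 at 0.5%, 0.22 at 1%, 0.09 at 2% and -0.26 at 5%, and none passed the threshold in limma, where 0 of the 6 had an unadjusted p under 0.05. The mean of 0.14 ± 0.08 did not pass either (adjusted p = 0.228). The change in 22Rv1 exceeded that in PC-3 by 0.29 ± 0.11, which missed the threshold (adjusted p = 0.0589) and passed in the paired fit (adjusted p = 0.0188, with 29.1% of probes called). Without the doubted arrays the difference was 0.31 (adjusted p = 0.0393). It also passed, at 0.31 to 0.35, without any one of 7 arrays: PC-3 normoxia replicate 2 at 0%, 22Rv1 hypoxia replicate 1 at 0.2 or 1%, 22Rv1 hypoxia replicate 2 at 0.5 or 2%, and 22Rv1 normoxia replicate 2 at 0.2 or 1% O2. In normoxia NDRG4 was 1.25 ± 0.08 lower in 22Rv1 than in PC-3 (adjusted p = 3.16e-16). All 22Rv1 controls lay below all PC-3 controls, as held for 18.4% of tested probes.

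**Figure D2:**
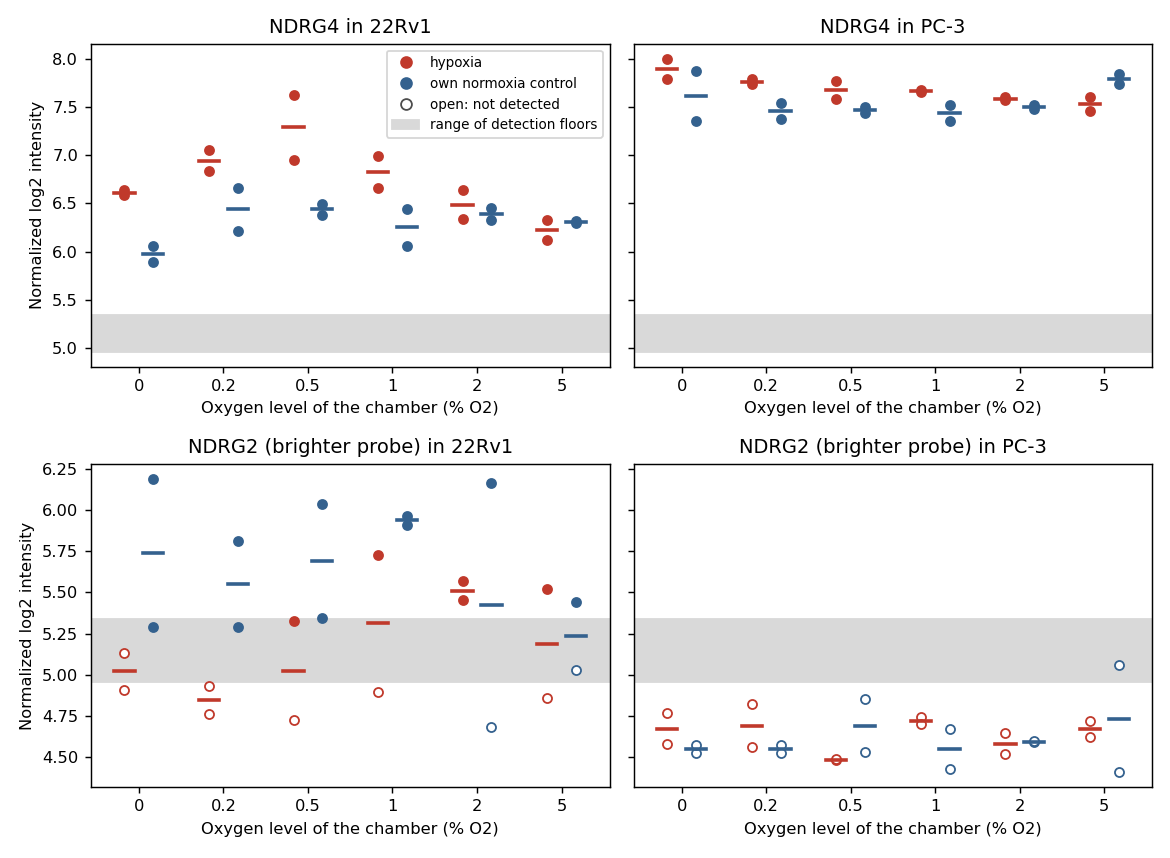
Normalized log2 intensity (vertical axis) of the detected NDRG4 probe and of the brighter NDRG2 probe by chamber oxygen level in % O2 (horizontal axis, arrays as points, group means as bars, open points not detected, grey band the range of detection floors over arrays). NDRG4 in 22Rv1 is highest in hypoxia at 0.5% O2 (7.63 and 6.95), and no PC-3 array detects the NDRG2 probe.

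NDRG3 had 2 probes, and they did not behave alike. The brighter, ILMN_1738229, was detected on all 48 arrays. In 22Rv1 its hypoxia arrays read 8.19, 8.43 and 8.74 at the lowest, median and highest, against 8.06, 8.50 and 8.64 in normoxia, and in PC-3 they read 8.42, 8.57 and 8.88, against 8.53, 8.65 and 8.75. Hypoxia and normoxia lay over each other in both lines. The mean change was 0.04 ± 0.06 in 22Rv1 (95% interval -0.08 to 0.15, adjusted p = 0.693) and -0.03 ± 0.06 in PC-3 (95% interval -0.15 to 0.08, adjusted p = 0.799).

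One level stood apart for this NDRG3 probe. At 0% O2 it read 8.19 and 8.20 in hypoxic 22Rv1, against 8.51 and 8.64 in the controls, a change of -0.38 ± 0.14 log2 units (limma adjusted p = 0.0395). It held in 13 of 17 processing alternatives (highest adjusted p 0.421). The call ended when any one of these 4 arrays was left out, with changes of -0.45 to -0.32 and adjusted p-values of 0.0678 to 0.212. At 2% O2 the values ran the other way, 8.44 and 8.73 in hypoxia and 8.40 and 8.06 in normoxia (change of 0.36, adjusted p = 0.169). The slope over oxygen in 22Rv1 was -0.10 ± 0.03 per step of falling oxygen (adjusted p = 0.0579, and 0.0335 in the paired fit, where 18.6% of probes were called). Without the doubted arrays the paired fit did not call it (-0.08, adjusted p = 0.0708). In normoxia this probe was 0.20 ± 0.06 lower in 22Rv1 than in PC-3 (adjusted p = 0.00186).

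The dimmer NDRG3 probe, ILMN_2385097, was detected on 47 of 48 arrays at intensities of 105 to 199, close to background. Its hypoxia arrays read 5.16, 5.57 and 6.48 at the lowest, median and highest in 22Rv1, against 5.36, 6.25 and 6.75 in normoxia. In PC-3 they read 5.16, 5.80 and 6.01, against 5.74, 6.13 and 6.52. Hypoxia was the lower arm in 11 of 12 pairs of 22Rv1 and in 10 of 12 pairs of PC-3, with the arms overlapping in both lines.

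The mean change of this dimmer probe was -0.53 ± 0.13 in 22Rv1 (limma adjusted p = 0.00144) and -0.38 ± 0.13 in PC-3 (adjusted p = 0.0371), where 20.9 and 11.7% of all probes were called lower. These changes did not differ beyond their error (22Rv1 minus PC-3, -0.15, 95% interval -0.54 to 0.23, adjusted p = 0.643). The PC-3 call ended on leaving out any one of 14 of the 24 PC-3 arrays, with means of -0.38 to -0.32 and 0.0995 as the highest adjusted p. The 14 arrays were both normoxia arrays at 0 and 0.2%, normoxia replicate 2 at 0.5, 1, 2 and 5%, hypoxia replicate 1 at 0, 0.5, 1 and 5%, and hypoxia replicate 2 at 0.2 and 2% O2. The PC-3 call held in 12 of 18 processing alternatives (-0.42 to -0.17, highest adjusted p 0.0912). In 22Rv1 the probe was called at 0% O2 (-0.88, adjusted p = 0.0429), a call lost without either hypoxia array (-1.08 and -0.68, adjusted p-values 0.0545 and 0.277) or without normoxia replicate 2 (-0.38, adjusted p = 0.555). That call held in 10 of 16 alternatives (-0.88 to -0.39, highest adjusted p 0.120). The paired fit also called it at 0.2% (-0.74, adjusted p = 0.0280, and 0.0336 without the doubted arrays) and, with 33% of all probes called, at 0.5% O2 (-0.78, adjusted p = 0.0106). Averaged over both probes the NDRG3 change in 22Rv1 was -0.25 (adjusted p = 0.0121), so the sign of a gene-level value for NDRG3 depends on the probe. The files do not say which transcripts the 2 probes read.

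NDRG2 was near the limit of detection. Its brighter probe, ILMN_2361603, was detected on 5 of 12 hypoxic and 10 of 12 normoxic 22Rv1 arrays and on 0 of 24 PC-3 arrays, and ILMN_1670535 on 2 of 12 hypoxic and 5 of 12 normoxic 22Rv1 arrays and on 1 of 24 PC-3 arrays. NDRG2 is therefore described in 22Rv1, and no change is given for PC-3. Of the 5 RefSeq promoter windows of NDRG2, 3 held a match to ACGTG or GCGTG. The one of these with the most CpG pairs overlaps another of the 3, and both hold the same matched site. That window is printed to set beside that of NDRG4, with the match in capitals, because the brighter NDRG2 probe read lower in hypoxia.
NDRG2 promoter, GRCh38.p14 chr14:21025012-21025311, minus strand: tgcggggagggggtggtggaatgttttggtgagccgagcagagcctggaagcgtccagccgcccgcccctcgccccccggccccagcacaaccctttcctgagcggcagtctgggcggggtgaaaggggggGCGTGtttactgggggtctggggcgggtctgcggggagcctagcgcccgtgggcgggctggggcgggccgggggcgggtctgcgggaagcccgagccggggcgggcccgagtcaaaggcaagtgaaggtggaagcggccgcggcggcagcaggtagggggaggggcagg
It holds 1 match to GCGTG, 119 bases before the start site.

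In hypoxic 22Rv1 the brighter NDRG2 probe read 4.72, 5.03 and 5.73 at the lowest, median and highest, against 4.68, 5.63 and 6.19 in normoxia. At 0% O2 it read 5.13 and 4.91 in hypoxia, both not detected, against 5.29 and 6.19 in normoxia, both detected. At 0.2% O2 it read 4.93 and 4.76 in hypoxia, again not detected, against 5.29 and 5.81 in normoxia, both detected. The hypoxic arrays at these levels sat at the floor while their controls were detected. The replicate 1 controls, at 5.29, still lay within the range of floors over arrays. Taken against the floor, the brighter NDRG2 probe was at least 1.60-fold lower in hypoxia at 0% O2 and at least 1.38-fold lower at 0.2% O2. This bound divides the mean of the controls by the higher of the floor and the measured value. The bound at 0% O2 rested mainly on replicate 2, whose pair differed by -1.28 log2 units, against -0.16 in replicate 1. The bound at 0.2% O2 includes the doubted arrays, and from replicate 1 alone it was at least 1.12-fold, while exchanging their labels turned the fitted change of -0.70 to 0.35. Neither the fitted change at 0% O2 nor that at 0.2% passed limma's threshold (adjusted p = 0.113 and 0.209). The paired fit called 0% O2 (adjusted p = 0.0464, with 34% of probes called). The dimmer NDRG2 probe was not called at these levels, with changes of -0.16 at 0% O2 and 0.33 at 0.2% (limma adjusted p = 0.760 and 0.557). Without the doubted arrays its change at 0.2% O2 was 0.68. Over all levels the dimmer probe was lower in hypoxia in 7 of 12 pairs of 22Rv1.

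Over all 6 levels the brighter NDRG2 probe changed by -0.45 ± 0.13 in 22Rv1 (limma adjusted p = 0.00781), lower in 10 of 12 pairs. Since 7 of the 12 hypoxia arrays did not detect the probe, this mean is no fold of a measured level. It was -0.39 (adjusted p = 0.0348) without the doubted arrays and -0.27 (adjusted p = 0.151) with their labels exchanged. The dimmer NDRG2 probe was called at 0.5% O2, with 4.58 and 4.68 in hypoxia, not detected, against 6.29 and 5.10 in normoxia, a fall of at least 1.56-fold (change of -1.06, adjusted p = 0.00321). That call ended without hypoxia replicate 1 (-1.01, adjusted p = 0.0504) or without normoxia replicate 1 (-0.47, adjusted p = 0.289), the control that stood highest. Its mean of -0.23 ± 0.11 did not pass (adjusted p = 0.100), and it passed without hypoxia replicate 1 at 2% O2 (-0.28, adjusted p = 0.0484) or normoxia replicate 2 at 0.5% O2 (-0.33, adjusted p = 0.00726). In normoxia the brighter probe was at least 1.41-fold higher in 22Rv1 than in PC-3 when taken against the floor. The fitted difference was 0.99 (limma adjusted p = 6.02e-08), with PC-3 values that were not detected. For the dimmer probe it was 0.45 (limma adjusted p = 0.000569), but its 22Rv1 controls averaged 5.04, under the mean floor of 5.10, so no bound can be given.

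**Figure D3:**
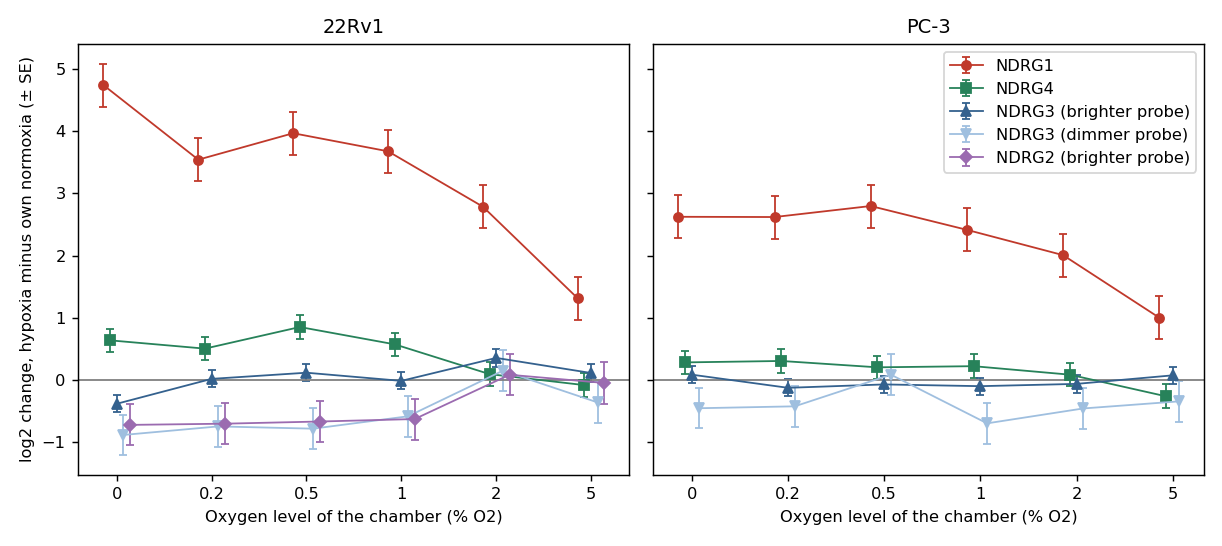
Change in log2 units, hypoxia minus own normoxia (vertical axis, points with ± SE from limma, 2 against 2 arrays), for 5 of the 6 tested NDRG probes at each chamber oxygen level in % O2 (horizontal axis). NDRG1 spans 1.31 to 4.74 in 22Rv1 and 1.00 to 2.80 in PC-3, while the other probes drawn stay within 1 log2 unit of 0. The dimmer NDRG2 probe (-1.06 at 0.5% O2 in 22Rv1) is not drawn, nor is the brighter one in PC-3, where it was not detected.

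Set against its relatives pair by pair, NDRG1 changed more. In 22Rv1 its change exceeded that of NDRG3 by 3.30 ± 1.34 log2 units and that of NDRG4 by 2.90 ± 0.94 (SD over 12 pairs). In PC-3 it exceeded the NDRG3 change by 2.28 ± 0.69 and the NDRG4 change by 2.10 ± 0.48. All 12 pairs were positive in each of these 4 comparisons. With every pair positive, the exact two-sided sign-flip permutation p is 0.000488 whatever the sizes, the smallest that 12 pairs allow. The adjusted value was 0.000488 over 5 tests. The fifth was against NDRG2 in 22Rv1, and its value is left out because the probe was not detected on 7 of 12 hypoxia arrays. The brighter probe stood for NDRG3 here, and the comparison is of changes, since levels of different probes are not on one scale. The sign-flip p adds nothing to the count of positive pairs. The pairs came from different oxygen levels, and arrays of a level may be technical repeats. They are therefore not 12 independent repeats of a single condition, and the SD includes differences between levels.

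The NDRG4 changes rose and fell with those of NDRG1. Over the 12 changes (6 levels in each line) Pearson's r between the NDRG1 and NDRG4 probes was 0.93, and it was 0.89 over the 6 changes of 22Rv1 and 0.96 over the 6 of PC-3. Of 15300 probes detected on at least 24 arrays, 87 (0.569%) had an r with NDRG1 at least as high. NDRG1 and the brighter NDRG3 probe had an r of -0.39. These are descriptions over points that share arrays, normalization and the order of the oxygen levels.

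**Figure D4:**
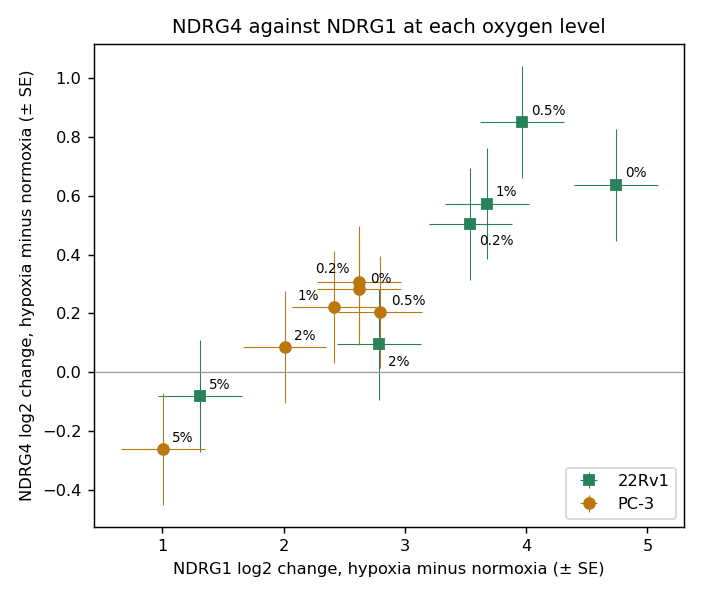
NDRG4 change (vertical axis) against NDRG1 change (horizontal axis), both as log2 hypoxia minus own normoxia with ± SE, one point for each line and oxygen level, labelled with its % O2. The points climb together with r = 0.93 over 12 changes, and the largest NDRG4 change, 0.85 at 0.5% O2 in 22Rv1, is less than the smallest NDRG1 change, 1.00.

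Ranked by the same measure, the genes most like NDRG1 were ARID3A, a DNA-binding factor, P4HA2, a collagen prolyl hydroxylase, and TMEM45A, a membrane protein, each with an r of 0.98, then OXSR1, a stress-responsive kinase (0.98), and DYNC1H1, the heavy chain of cytoplasmic dynein (0.97). Those most like NDRG4 were VKORC1, TBC1D9B, AGPAT2, PSAP and FAM46A (now TENT5A), with r of 0.96 each. The brighter NDRG3 probe had ANKS1A as its most similar gene (0.94), and TKT, NSUN5B and SMARCD2 also ranked among its first 5 (0.88 to 0.89). The mean change of that NDRG3 probe passed in neither line, and its likes were picked as the highest r among 15300 probes. Shared control was not tested. P4HA2 changed by 2.66 in 22Rv1 and 1.45 in PC-3, and DYNC1H1 by 0.73 and 0.36, so a like pattern came with changes of very different size.

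Genes known to control or work with the family gave a mixed picture. Of 30 listed regulators and partners 26 were tested. In 22Rv1 6 rose and 4 fell, beside 17.5% of all probes called higher and 20.9% lower. As a share of the list this was close to the 38.4% called over all probes in either direction. The median change in 22Rv1 was 0.07, beside -0.01 over all probes. In PC-3 6 rose and 2 fell, beside 9.54% of all probes called higher and 11.7% lower (21.2% in either direction). The PC-3 median was 0.07 beside -0.01. HIF1A, which encodes the alpha subunit that oxygen destabilises, fell at the RNA level, with a change of -0.42 ± 0.09 log2 units in 22Rv1 (adjusted p = 0.000185) and -1.21 ± 0.09 in PC-3 (adjusted p = 1.50e-12). EGLN1, the prolyl hydroxylase that marks that subunit for destruction, rose by 1.60 ± 0.09 in 22Rv1 and 1.01 ± 0.09 in PC-3. MYC, a repressor of NDRG1, changed by 0.08 ± 0.06 in 22Rv1 (adjusted p = 0.263) and rose by 0.21 ± 0.06 in PC-3 (adjusted p = 0.00517).

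SGK1, a kinase that phosphorylates NDRG1, changed by -0.06 ± 0.08 in 22Rv1 (adjusted p = 0.652) and fell in PC-3, with a change of -0.38 ± 0.08 (adjusted p = 0.000894). On the lactate side, LDHA, which makes lactate from pyruvate, rose by 1.00 ± 0.03 in 22Rv1 and 0.17 ± 0.03 in PC-3, and SLC16A3, a lactate exporter, by 2.88 ± 0.08 and 0.90 ± 0.08. The differences between the lines passed for both (0.83 and 1.98, adjusted p = 6.69e-15 each). LDHA already averaged 13.74 in PC-3 normoxia, near the top of the scale, against 12.62 in 22Rv1. Whether that bears on its smaller PC-3 change was not tested. The other 3 listed genes that fell in 22Rv1 were MAX, SGK3 and LDHB, named after their values were seen. MAX was detected on 3 of 12 hypoxic and 6 of 12 normoxic 22Rv1 arrays, so its fall there is no fold of a measured level. Of 18 listed genes that hypoxia is known to induce, 17 were tested, and 16 rose in 22Rv1 (median change 2.68, beside 17.5% of all probes called higher) and 17 in PC-3 (median change 1.10, beside 9.54%). By the test of the difference, where 9.72% of probes were called higher, 15 had the more positive change in 22Rv1. ANGPTL4 and CA9, named after their values were seen, had it in PC-3. CA9, included in these counts, was detected on 5 hypoxic PC-3 arrays, on no normoxic PC-3 array and on no 22Rv1 array. Its PC-3 rise is therefore no fold of a measured level. Its missing rise in 22Rv1 and its line difference rest on 22Rv1 values that were not detected. The NDRG1 changes of 3.34 in 22Rv1 and 2.24 in PC-3 lay above both medians.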

How the data were processed

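Total RNA was hybridised as biotin-labelled cRNA to 48 Illumina bead arrays, per the labels' protocols. The authors deposited probe intensity values and a detection p-value per array, not normalized per the file headers; BeadStudio 3.1.3.0 is named in the submitters' processing notes, and further upstream steps are not given in the sources used here. The second deposited table holds intensity values whose normalization is not stated, and it served as an alternative.

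Intensities were background-corrected with the detection p-values, quantile-normalized and put on a log2 scale (neqc, offset 16) in limma 3.58.1 with R 4.3.3. Probes detected (p under 0.01) on at least 2 arrays were fitted with one mean for each of 24 groups and a trended prior variance, which left 24 residual degrees of freedom. P-values were adjusted by Benjamini-Hochberg over 22637 probes within a comparison, with a threshold of 0.05, and ± denotes the SE of a difference unless SD is written. Only 2 arrays a group limits the precision. Replicate numbers come from the array titles, where they are shared by hypoxia and control. Deviations of same-numbered arrays from the group means correlated at 0.174 to 0.456 in 22Rv1 and 0.318 to 0.448 in PC-3. The means were 0.281 in 22Rv1 and 0.377 in PC-3, beside 0.155 and 0.307 with same-numbered controls of other levels, so part of the correlation is not particular to the own control. Each pair exceeded 0.1, so the paired fit, with each hypoxia array and its control as a block, is given where it changes a call. The fit was tested on simulated data.

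The main probe of a member is its brightest by mean. Named genes are the 5 most correlated with a main probe over the 12 changes, and from the list of regulators the 4 largest mean changes plus HIF1A, EGLN1, MYC and SGK1; some genes these rules pick are not reported here. Members and lists were chosen with earlier results of these data known. Promoters are from the RefSeq table of GRCh38.p14, which had windows for NDRG2 and NDRG4. Leaving out the 2 doubted arrays, with or without the block, and relabelling them in the second table were alternatives chosen after seeing the data.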

Additional observations from a re-analysis of the deposited data

Results flagged for a closer look

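The response of NDRG1 to hypoxia differed between the lines by the test of the difference itself. Its mean change was larger in 22Rv1 than in PC-3 by 1.09 ± 0.20 log2 units (SE, limma adjusted p = 0.000119), and its change at 0% O2 was larger by 2.12 ± 0.49 (adjusted p = 0.00321). With the labels of the 2 doubted arrays exchanged, both missed the threshold. Groups of 2 arrays are too small for a test of single outlying arrays.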

How the results depend on the processing

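The NDRG1 rise kept its direction and its call in all 19 alternatives as a mean over levels, at 2.53 to 3.47 log2 units in 22Rv1 and 2.09 to 2.24 in PC-3. The NDRG4 rise in 22Rv1 did so too, at 0.21 to 0.45. Exchanging the labels of the 2 doubted arrays, or using the other deposited table with its own labels, ended the NDRG1 line difference (0.64 with adjusted p = 0.331, and 0.36 with adjusted p = 0.579) and the mean NDRG2 change in 22Rv1 (-0.27 with adjusted p = 0.151, and -0.11 with adjusted p = 0.127), and turned the NDRG1 line difference at 0.2% O2 to -1.80 in both. Pairing arrays by a replicate block brought the NDRG4 line difference of 0.29 past the threshold (adjusted p = 0.0188), as did array weights (0.0498), a filter of 12 arrays (0.0481), the mean of probes (0.0462) and leaving out the doubted arrays (0.31, adjusted p = 0.0393, and 0.0145 with the block too). Among the comparisons reported here, the block changed no other member's call beyond those given in the text.

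Signs near 0 turned. The brighter NDRG3 probe's mean change in 22Rv1 was -0.0779 with median centring and -0.25 with the mean of probes and its line difference -0.0026 and -0.0428. Its normoxia difference kept its sign and lost its call with the mean of probes (-0.0795, adjusted p = 0.387). The dimmer NDRG3 probe's normoxia difference was -0.0427 with median centring and -0.0795 with the mean of probes. The NDRG1 line difference at 5% O2 was -0.18 with median centring and -0.0473 with pooled controls. The causes were not tested. Median centring also gave 2877 called probes over all for the PC-3 mean, where quantile normalization gave 4801, and 2435 for the line difference, where it gave 4567.

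Leaving out single arrays gave these ranges. NDRG1 means lay at 3.23 to 3.44 in 22Rv1 and 2.16 to 2.33 in PC-3, its line difference at 0.99 to 1.19, at 5% O2 at -0.15 to 0.76, and its normoxia difference at -3.34 to -3.21. The mean of the brighter NDRG2 probe in 22Rv1 lay at -0.57 to -0.32. The brighter NDRG3 probe lay at 0.00 to 0.07 in 22Rv1 and -0.05 to -0.01 in PC-3, and the dimmer probe's normoxia difference at -0.0597 to 0.15. The NDRG4 mean lay at 0.37 to 0.49 in 22Rv1 and 0.10 to 0.18 in PC-3, with a line difference of 0.23 to 0.35. Signal over background limits NDRG2 and the dimmer NDRG3 probe.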
